A study of Mus musculus with 158 samples.

Results

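Pool 11 is 1 of 19 pools of short hairpin RNAs (shRNAs) that were carried by mouse pancreatic cancer cells and counted before and after the cells formed lung tumours. Its members were taken by label: 9 of the 158 samples of the study, and in them the 52 hairpins that the deposited tables assign to pool 11, of 1000 targeting hairpins in all pools. The 52 hairpins target 31 genes, 16 genes with 1 hairpin, 11 with 2, 2 with 3 and 2 with 4. The cells were PDA530 Met, a line from a liver metastasis of pancreatic adenocarcinoma. They were infected with virus of the pool at a low multiplicity, selected with puromycin, and injected into the tail vein of 3 mice. The 3 day 0 libraries (A, B and C) came from cell pellets taken at the start. The 3 lung libraries came from day 28, each holding all tumours of 1 mouse combined. The 3 culture libraries came from cells kept in dishes in triplicate for the same 28 days. All 9 libraries were genomic DNA of infected and selected cells, so no arm is free of hairpins. The titles of the culture libraries name pools 10 and 11 together, although their labels give pool number 10 only. The sources used here do not state the strain of the mice or whether the day 0 pellets were separate cultures, so p-values measure the spread between these libraries, which at day 0 may be technical.

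A hairpin integrated into the genome is passed to every daughter cell, so its share of the amplified DNA follows the share of cells that carry it. The hairpin is processed into a small RNA that guides the silencing machinery to a matching messenger RNA. Hairpins that slow growth or survival are lost from a mixed population and hairpins that favour them are enriched, while small founding populations, as in metastatic seeding, also move shares at random. Hairpins against the same gene can differ in how well they silence it and in which other transcripts they touch. Knockdown was not measured in these libraries, and no expression markers of tumour or host cells can be read from hairpin DNA.

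Depth ranged from 3370297 to 5916981 reads per library. Pool 11 hairpins made up 65.5% to 66.4% of reads at day 0, 70.3% to 75.1% in lungs and 39.0% to 50.2% in culture, where pool 10 hairpins added 25.8% to 35.7%. The rest was almost all from 8 control hairpins that every pool holds. All 52 hairpins had reads in every library, and the lowest value was 45 reads. Replicate libraries differed by far more than sampling noise, with a chi-square per degree of freedom of at least 111 between libraries of 1 arm, so none was the same read table deposited again. This does not tell separate cultures from repeat amplifications. Values below are shares, the percent of the pool 11 reads of a library. The PCR carried no molecular identifiers, so reads are not independent molecules.

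The pool became less even on both routes. The effective number of hairpins, the number of equally common hairpins that would give the same Shannon entropy, was 35.8, 34.5 and 34.1 in day 0 libraries A, B and C. It was 24.1, 23.2 and 23.3 in culture and 22.3, 25.0 and 21.6 in lungs. Every culture and lung library lay below every day 0 library, while the lung values lay on both sides of the culture values. The means were 34.8 ± 0.86 (SD, n = 3) at day 0, 23.5 ± 0.50 (n = 3) in culture and 23.0 ± 1.78 (n = 3) in lungs. Exact two-sided permutation tests gave p = 0.1 for lungs against day 0 and for culture against day 0, the smallest value that 3 against 3 libraries allow, and p = 0.6 for lungs against culture. Among the pools with values, pool 11 ranked 6 of 19 in this number at day 0, 6 of 18 in culture and 8 of 17 in lungs.

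The most common hairpins held more of the pool on both routes, and some were common on both. At day 0 the most common hairpin held 6.10% to 6.68% of the pool, and the top 3 held 18.0% to 19.8%. In culture the top 3 held 32.4% to 33.9%, and the leading hairpin was against Mkrn2 in libraries A and B and against Dennd2c in library C. In lungs the top 3 held 36.4% to 42.1%. Among the common hairpins there were TRCN0000215801 against Xirp2, with a mean lung share of 12.5%, and TRCN0000040524 against Mkrn2, with 10.6%.

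Lung libraries resembled each other less than culture libraries did. Pearson r across hairpins of log2 values between libraries was 0.994 to 0.998 at day 0, 0.961 to 0.974 in culture and 0.864 to 0.907 in lungs, with 3 pairs of libraries per arm and hairpins that are not independent. The median SD of a hairpin's log2 share over 3 libraries was 0.091 at day 0, 0.24 in culture and 0.57 in lungs. In lungs 29 of 52 hairpins differed by more than 2-fold between the highest and lowest mouse, against 6 in culture and 0 at day 0. The least even was TRCN0000084728 against Znrd1, a zinc ribbon subunit of RNA polymerase I, with 0.0845% of the pool in lungs A, 0.550% in lungs B and 2.26% in lungs C. These values spanned its day 0 range of 0.553% to 0.648%, and its log2 difference from day 0 was -0.19 ± 1.11 (SE).

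**Figure D1:**
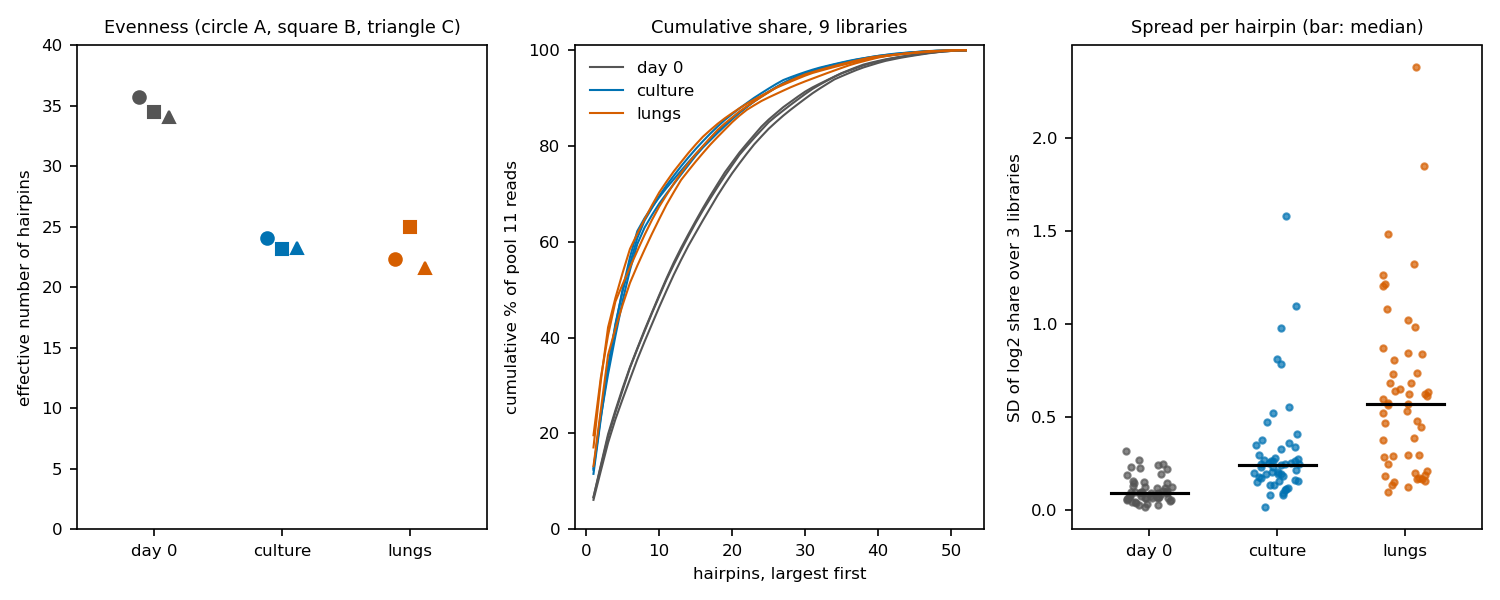
Evenness and spread of pool 11 in 3 day 0, 3 culture and 3 lung libraries. The left panel plots the effective number of hairpins per library, the middle panel the cumulative percent of pool 11 reads over hairpins ranked from the largest, and the right panel the SD of each hairpin's log2 share over 3 libraries with the median as a bar. Culture and lung libraries lie near 23 effective hairpins and day 0 libraries near 35, while the median SD rises from 0.091 to 0.24 and 0.57.

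Changes of single hairpins were tested with limma on log2 values of CPM (reads scaled to a common total of pool 11 reads), scaled by the TMM method, which sets most hairpins near no change. The sign of a difference is the first-named arm minus the other, and Benjamini-Hochberg adjustment ran over the whole table of every pool, with a threshold of 0.05. TMM raised the log2 differences above plain share ratios by 0.17 for lungs against day 0 and by 0.59 for culture against day 0, and shifted those for lungs against culture by -0.34. A hairpin can therefore keep its share in culture and still count as higher. The comparisons with day 0 share the same 3 day 0 libraries, so their values are given side by side.

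Lung tumours against day 0, the comparison that asks which hairpins were gained or lost in the lung, called 20 of 52 hairpins, against a background of 33.8% of 891 hairpins tested in all pools. The 8 higher hairpins compare with a background of 14.7%, and the 12 lower hairpins with 19.1%. Among the larger losses were those of hairpins against Aff4, Mkrn2, Arhgef12 and Sf3b1, and the largest gains were of hairpins against Dach2 and Xirp2. Of the calls, 40% were higher, and this share was 30% with plain pool shares, 31.6% with DESeq2 size factors or the deposited scaling and 44.4% with the control hairpins as the scale. Over these 5 scalings 16 of the 20 hairpins were called in the same direction, 6 higher and 10 lower. The count fell to 12 without day 0 library B, and to 14 without day 0 A or C.

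After 28 days of culture 39 of 52 hairpins were called against day 0, with a background of 60.6%. They were 19 higher (background 28.8%) and 20 lower (background 31.9%). The most enriched hairpins were against Dennd2c, Msi2, Nfkbiz and Xirp2, and the most depleted against Aff4, Dock2, Dusp4 and Bzw2. The balance of directions rests on the scale: 48.7% of calls were higher with TMM and 52.6% with DESeq2 size factors, but 26.3% with plain shares, 25% with the deposited scaling and 23.1% with the control hairpins, whose reads in culture come from both pools. Under all 5 scalings 9 hairpins were higher and 18 lower. For the median hairpin, the limma estimate of spread in this comparison rested fully on the trend over the pool's hairpins, which makes p-values very small. This need not hold for each hairpin. With 1 estimate shared by all pools 36 hairpins passed. With all 3 arms in 1 fit 26 of the 39 passed, 8 higher and 18 lower, so 30.8% of calls were higher. On simulated data in which hairpins were made to change, the same steps called more unchanged hairpins than the adjusted p allows. The counts of calls in all 3 comparisons may hold more false calls than the threshold names. The simulation kept the total of each pool fixed, so shares of its unchanged hairpins moved as well.

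Lung tumours against culture, which sets the lung beside growth in a dish over the same time, called 20 of 52 hairpins, with a background of 24.9%. There were 8 higher (background 11.6%) and 12 lower (background 13.3%). Here too the balance followed the scale, with 40% of calls higher for TMM, 47.6% for DESeq2 size factors, 52.6% for plain shares, 68.4% for the deposited scaling and 89.5% for the control hairpins. The last share carries a limit, since control reads in culture come from pools 10 and 11, and dividing them by the reads of both pools turned the control difference of lungs from culture from -0.55 to 0.20 (log2). The 8 higher hairpins were called under all 5 scalings, and of the 12 lower ones 2 were, among them TRCN0000200322 against Dennd2c. Under the 3 scalings with no control reads in them (TMM, plain shares and DESeq2 size factors) 8 higher and 9 lower hairpins were called. With 1 estimate of spread shared by all pools the count was 12.

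**Figure D2:**
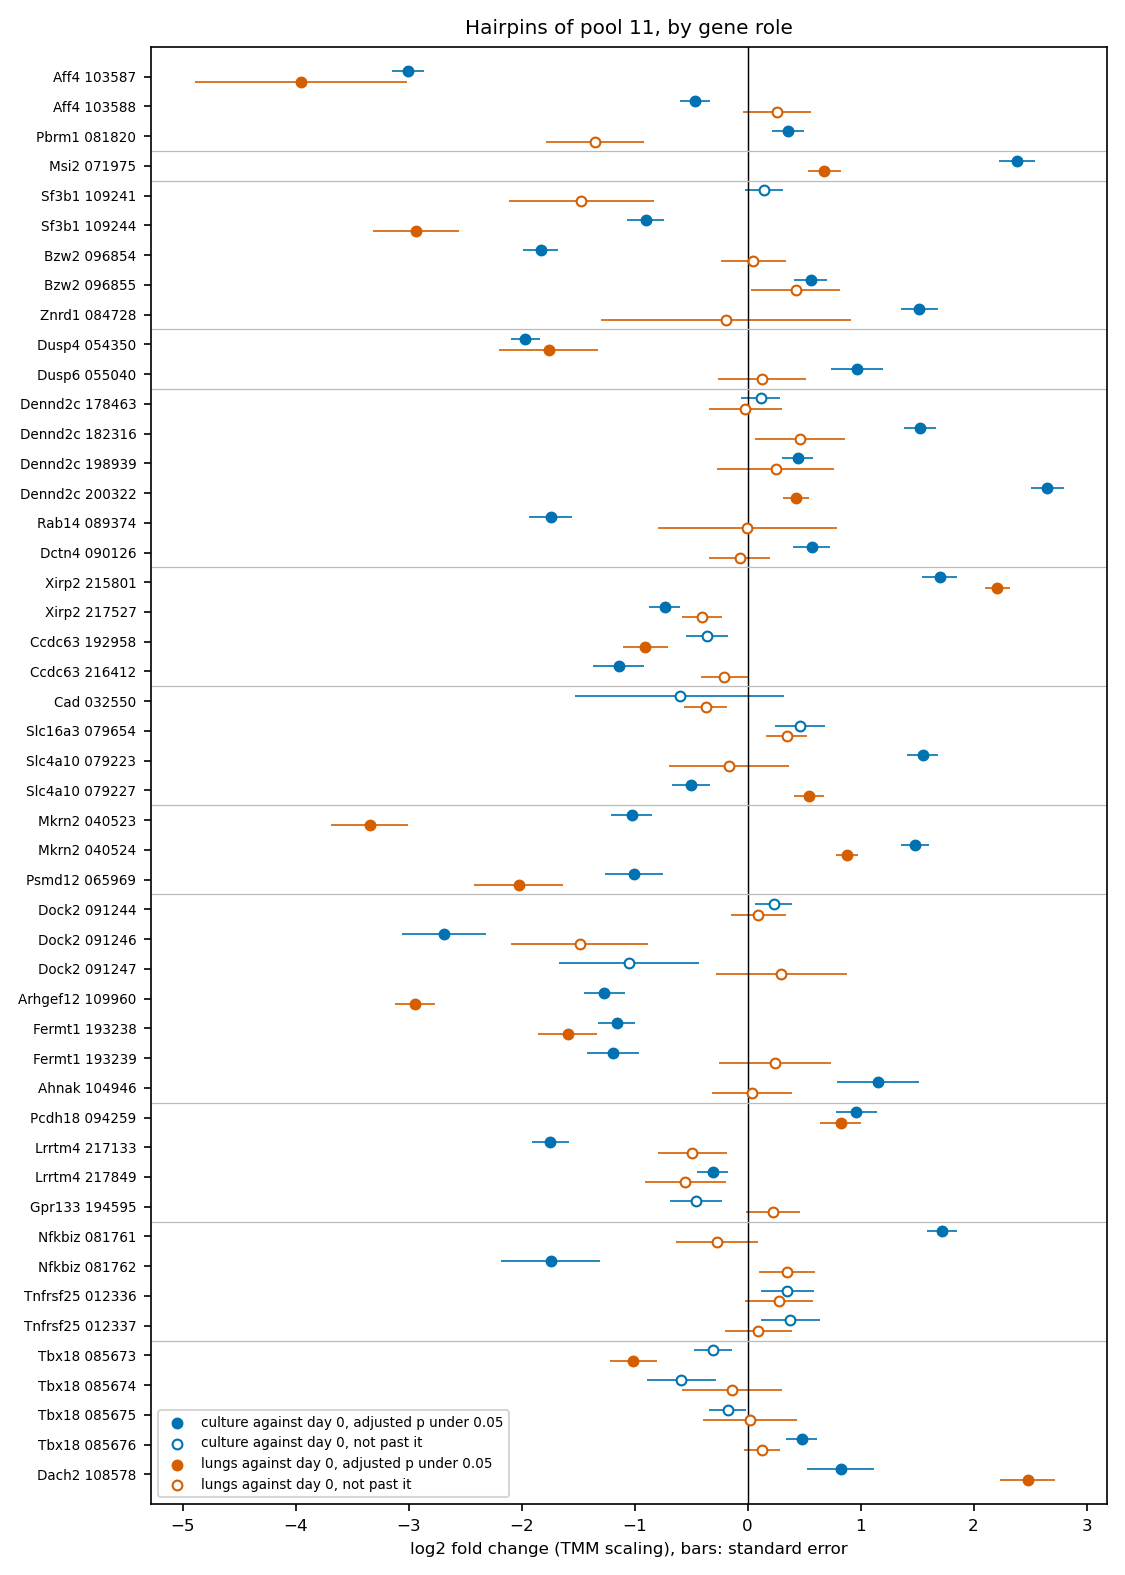
Log2 fold changes of hairpins of pool 11, of which a few are not shown, with their standard errors, for culture against day 0 (blue) and lungs against day 0 (orange), in blocks of gene role from chromatin genes at the top to developmental transcription factors at the bottom. Filled points passed an adjusted p of 0.05 (limma), more of them in culture than in lungs, and each hairpin is labelled with its gene and the last digits of its identifier.

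Among chromatin and transcript elongation genes, Aff4 is the scaffold of the super elongation complex. TRCN0000103587 against it made up 3.59%, 3.73% and 3.91% of the pool at day 0, then 0.378%, 0.299% and 0.262% in culture and 0.633%, 0.0523% and 0.299% in lungs. Both later arms lay far below day 0, and the lung values lay on both sides of those in culture. It fell by 3.95 ± 0.94 (SE, log2) in lungs (adjusted p = 0.0248, limma) and by 3.01 ± 0.14 in culture. The lung call was lost when any day 0 library was left out, and the value rested on single mice, at -2.77 without lungs B and -4.69 without lungs A. The other hairpin, TRCN0000103588, fell in culture by 0.47 ± 0.13, a call lost with all 3 arms in 1 fit, and had a lung difference from day 0 of 0.26 ± 0.30, which did not pass. Pbrm1, a subunit of the PBAF chromatin remodelling complex, had 1 hairpin at -1.35 ± 0.43 in lungs against day 0 (adjusted p = 0.0587) and at 0.36 ± 0.14 in culture. The culture call turned negative with plain shares and was lost without any 1 of the day 0 libraries. With the deposited and the control scaling the hairpin passed as lower in culture, at -0.30 and -0.34 (adjusted p = 0.0463 and 0.0478, limma). Its difference of lungs from culture was -1.63 ± 0.43 and passed (adjusted p = 0.0154), but not with the deposited or control scaling or without lungs B, culture A or culture B.

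Msi2, a Musashi RNA binding protein tied to stem cell states, had 1 hairpin in the pool, TRCN0000071975. Its share was 2.07%, 1.73% and 1.77% at day 0, 6.41%, 5.39% and 7.73% in culture and 2.44%, 2.63% and 2.88% in lungs. All lung values lay above day 0 and below culture. The log2 difference was 2.39 ± 0.16 (SE) in culture, 0.68 ± 0.14 in lungs (adjusted p = 0.0158, limma) and -1.63 ± 0.19 for lungs against culture (adjusted p = 7.1e-05). The lung gain over day 0 did not pass without day 0 library B or C or with the replicate block, and the difference from culture did not pass when scaled to the control hairpins.

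Of 5 hairpins against splicing, translation and ribosome genes, 1 was lower and 0 higher in lungs against day 0, and 2 were lower and 2 higher in culture. Set against 19.1% lower and 14.7% higher in lungs and 31.9% and 28.8% in culture over all pools, these counts are too small to read a difference from. Sf3b1 is a core splicing factor of the U2 particle and is needed by most cells. TRCN0000109244 against it had 3.34%, 3.74% and 3.64% of the pool at day 0, 1.44%, 1.19% and 1.20% in culture and 0.405%, 0.283% and 0.619% in lungs. It fell stepwise with no overlap between arms, by 2.94 ± 0.38 (SE, log2) in lungs (adjusted p = 0.00305, limma) and 0.90 ± 0.16 in culture. TRCN0000109241 against the same gene was at 0.14 ± 0.17 in culture and at -1.47 ± 0.64 in lungs, neither past the threshold. In lungs this hairpin ranged from 0.382% to 2.01%.

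Bzw2, a regulator of start codon choice in translation, had hairpins that parted in culture. TRCN0000096854 fell from 2.01%, 2.22% and 2.08% at day 0 to 0.464%, 0.336% and 0.390% in culture, while in lungs it stood at 1.25%, 3.01% and 1.93%, around its starting share. The log2 difference was -1.83 ± 0.16 (SE) for culture, 0.05 ± 0.29 for lungs against day 0 and 1.96 ± 0.42 for lungs against culture (adjusted p = 0.00463, limma). TRCN0000096855 had 0.56 ± 0.14 in culture, but its mean share there was 1.70% ± 0.358 (SD, n = 3) against 1.70% ± 0.114 at day 0, so the call comes from the TMM shift. The Znrd1 hairpin rose in culture by 1.52 ± 0.16, a call lost with all 3 arms in 1 fit.

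Among protein turnover genes, the hairpins against Mkrn2 split. Mkrn2 is a Makorin zinc finger protein with a RING domain of the kind found in ubiquitin ligases. TRCN0000040523 fell from 1.17%, 1.12% and 1.05% at day 0 to 0.397%, 0.438% and 0.274% in culture and 0.0887%, 0.0665% and 0.155% in lungs. TRCN0000040524 rose from 6.10%, 6.60% and 6.59% to 12.4%, 12.7% and 10.9% in culture and 8.92%, 11.7% and 11.3% in lungs. The first fell in steps that did not overlap, and the second was above day 0 in all 6 later libraries. In lungs against day 0 they were at -3.35 ± 0.34 (SE, log2) and 0.88 ± 0.10, with limma adjusted p of 0.00155 and 0.00199. Both calls held under all 19 alternatives, but the changes of read filter among these repeat the main log2 differences. Psmd12, a lid subunit of the proteasome, had 1 hairpin that fell by 2.03 ± 0.39 in lungs (adjusted p = 0.0128) and by 1.01 ± 0.26 in culture.

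**Figure D3:**
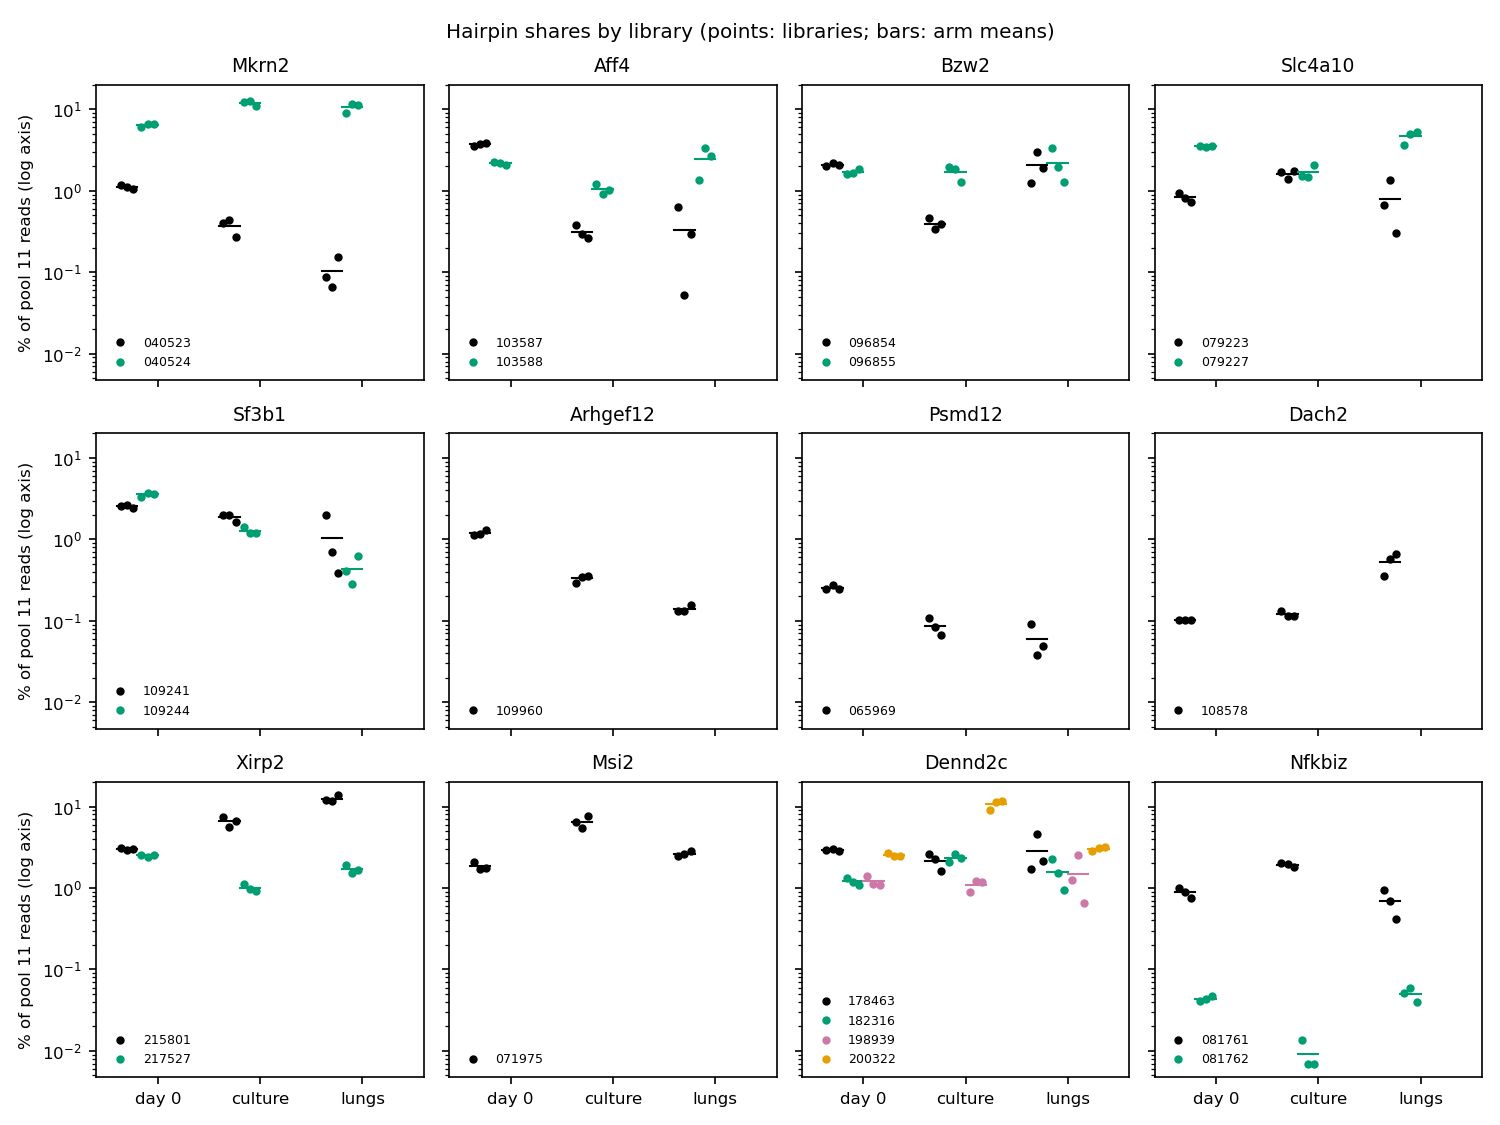
Percent of pool 11 reads (log axis) of the hairpins against 12 genes in day 0, culture and lung libraries, with a point per library in the order A, B, C and a bar at the mean of each arm, and hairpins keyed by the last digits of their identifiers. The Mkrn2 hairpin TRCN0000040524 lies above day 0 in all 6 later libraries while TRCN0000040523 falls to 0.0665% to 0.155% in lungs.

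The largest gains in lungs were of a hairpin against a developmental cofactor and one against a muscle protein. Dach2 is a transcriptional cofactor of the dachshund family that acts in muscle and limb development. Its hairpin TRCN0000108578 was nearly constant at 0.103%, 0.103% and 0.101% at day 0, was at 0.132%, 0.115% and 0.116% in culture, and reached 0.354%, 0.567% and 0.656% in lungs. All lung values were above the others, by 5.13-fold over day 0 in mean share. The log2 difference of lungs was 2.48 ± 0.24 (SE) against day 0 (adjusted p = 0.00116, limma) and 1.74 ± 0.40 against culture (adjusted p = 0.00787). Both calls held under all 19 alternatives. In culture the hairpin was also called higher than day 0, by 0.82 ± 0.29 (adjusted p = 0.0114). That call was lost with plain shares, the deposited scaling, the control scaling and all 3 arms in 1 fit. Tbx18, a T-box transcription factor, was in the same role group with 4 hairpins, of which TRCN0000085673 fell in lungs by 1.01 ± 0.21, a call lost without day 0 B and with the control scaling, and the others ranged from -0.14 to 0.13, not past the threshold.

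Xirp2 is an actin binding protein of striated muscle. TRCN0000215801 rose from 3.09%, 2.92% and 3.04% at day 0 to 7.41%, 5.68% and 6.63% in culture and 12.0%, 11.6% and 13.8% in lungs. The 3 arms were in the same order in every library, with no overlap. The difference was 2.21 ± 0.11 (SE, log2) in lungs (adjusted p = 0.00017, limma), 1.70 ± 0.15 in culture and 0.59 ± 0.14 between lungs and culture (adjusted p = 0.00767), the last lost without lungs C, with 1 estimate of spread over all pools and with no trend in that estimate. The other hairpin, TRCN0000217527, fell in culture by 0.73 ± 0.14 and stood at -0.40 ± 0.18 in lungs, which did not pass. Ccdc63, a coiled-coil protein of the sperm tail, had 2 hairpins, of which TRCN0000192958 fell in lungs by 0.90 ± 0.20, a call lost without day 0 A or B and with the control scaling, and TRCN0000216412 fell in culture by 1.14 ± 0.23.

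Of 6 hairpins against membrane traffic genes, 4 were higher and 1 lower in culture, and 1 was higher in lungs against day 0. Over all pools 28.8% of hairpins were higher and 31.9% lower in culture, and 14.7% higher and 19.1% lower in lungs. Of the 4 higher calls, those of TRCN0000090126 against Dctn4, a dynactin subunit, and TRCN0000198939 turned negative with plain shares, the deposited scaling and the control scaling. Dennd2c is a DENN domain protein, a class that activates Rab GTPases. TRCN0000200322 against it grew from 2.66%, 2.47% and 2.44% at day 0 to 8.97%, 11.3% and 11.5% in culture, but was at 2.81%, 3.10% and 3.18% in lungs. The lung values were just above day 0 and far below culture. The log2 difference was 2.65 ± 0.15 (SE) in culture, 0.43 ± 0.12 in lungs (adjusted p = 0.0351, limma) and -2.14 ± 0.17 for lungs against culture (adjusted p = 3.68e-06). The small gain in lungs was called under 9 of 19 alternatives and 2 of 5 scalings. It was lost with plain pool shares, DESeq2 size factors, the deposited scaling or 1 estimate of spread over all pools, and without lungs A or any day 0 library. TRCN0000182316 rose in culture by 1.53 ± 0.14, TRCN0000198939 by 0.44 ± 0.14 with TMM, and TRCN0000178463 was at 0.11 ± 0.17. Rab14, a small GTPase of endosomes and the Golgi, had a hairpin that fell in culture by 1.74 ± 0.19 and ranged from 0.395% to 3.09% in lungs.

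Of 4 hairpins against inflammatory regulators, those against Nfkbiz changed in culture, 1 higher and 1 lower, with backgrounds of 28.8% and 31.9%. Nfkbiz encodes a nuclear IkB protein that modulates NF-kB target genes. TRCN0000081761 rose from 1.01%, 0.899% and 0.749% to 2.00%, 1.97% and 1.82% in culture and was at 0.944%, 0.694% and 0.419% in lungs. TRCN0000081762 fell from 0.0410%, 0.0438% and 0.0467% to 0.0134%, 0.00691% and 0.00698% in culture and was at 0.0511%, 0.0599% and 0.0400% in lungs. For both, lungs overlapped day 0 and culture did not. In culture the differences were 1.72 ± 0.13 and -1.74 ± 0.44 (SE, log2), and for lungs against culture -1.91 ± 0.41 and 2.17 ± 0.56, with limma adjusted p of 0.00462 and 0.0136. The first of these calls was lost with the control scaling and without culture A, the second with 1 estimate of spread over all pools and without lungs B or culture C, and the second was 2.77 without culture A. For lungs against day 0 they were -0.27 ± 0.36 and 0.35 ± 0.25, and 0 of the 4 hairpins against Nfkbiz and the death receptor gene Tnfrsf25 passed, where 33.8% did over all pools.

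Of 7 hairpins against integrin and cytoskeleton genes, 4 were lower and 1 higher in culture, and 2 were lower and 0 higher in lungs against day 0. Over all pools the shares were 31.9% lower and 28.8% higher in culture, and 19.1% and 14.7% in lungs. Arhgef12 is a guanine nucleotide exchange factor for small GTPases. Its hairpin TRCN0000109960 fell from 1.15%, 1.18% and 1.29% to 0.296%, 0.347% and 0.360% in culture and 0.131%, 0.131% and 0.158% in lungs. The arms did not overlap, and the mice differed little. The difference was -2.94 ± 0.18 (SE, log2) in lungs (adjusted p = 0.000314, limma), -1.27 ± 0.18 in culture and -1.60 ± 0.40 for lungs against culture (adjusted p = 0.0117), the last lost with the deposited and the control scaling.

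Fermt1, which encodes kindlin-1, an activator of integrins in epithelia, had 2 hairpins that both fell in culture. TRCN0000193238 fell by 1.16 ± 0.16 (SE, log2) in culture and by 1.59 ± 0.26 in lungs (adjusted p = 0.00695, limma). TRCN0000193239 went from 0.628%, 0.557% and 0.567% at day 0 to 0.195%, 0.147% and 0.170% in culture and 0.369%, 0.457% and 1.37% in lungs. Its difference was -1.19 ± 0.23 in culture, 0.24 ± 0.49 in lungs against day 0 and 1.51 ± 0.48 for lungs against culture (adjusted p = 0.037), the last called under 13 of 19 alternatives and lost without lungs C, culture A or culture B.

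Dock2 is a Rac activator best known from blood cells. TRCN0000091246 against it fell from 0.230%, 0.251% and 0.246% to 0.0126%, 0.0490% and 0.0250% in culture and was at 0.126%, 0.122% and 0.0294% in lungs. The difference was -2.69 ± 0.37 (SE, log2) in culture and -1.49 ± 0.60 in lungs (adjusted p = 0.11, limma). The other 2 hairpins did not pass in any comparison. Ahnak, a large scaffold protein, had a hairpin at 1.16 ± 0.36 in culture, where library C held 0.687% against 0.270% and 0.250% in A and B, and the call was made under 11 of 19 alternatives and under TMM alone of the 5 scalings. It was also lost with 1 estimate of spread over all pools and without culture A or day 0 C.

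Of the cell surface receptors, Lrrtm4, a synaptic adhesion protein, had TRCN0000217133 at 4.10%, 4.71% and 4.36% at day 0, 0.942%, 1.10% and 0.636% in culture and 3.42%, 3.58% and 1.76% in lungs. Culture lay below both other arms. It fell in culture by 1.75 ± 0.16 (SE, log2), and lungs were above culture by 1.34 ± 0.42 (adjusted p = 0.0354, limma), a call lost without lungs B, culture B or culture C and with 1 estimate of spread over all pools. TRCN0000217849 against it was called lower in culture at -0.31 ± 0.14, a call made under 7 of 19 alternatives and lost with edgeR, with DESeq2 and without any 1 of 5 libraries. The hairpin against Pcdh18, a protocadherin, rose from 0.564%, 0.565% and 0.598% to 0.810%, 0.902% and 1.02% in lungs and was at 0.988%, 0.523% and 0.809% in culture. Its lung gain of 0.82 ± 0.18 (adjusted p = 0.0199) was lost when any day 0 library was left out. The hairpin against Gpr133, an adhesion receptor now named Adgrd1, passed in no comparison.

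In the MAPK group, Dusp4 and Dusp6 encode phosphatases that switch off ERK and related kinases. The Dusp4 hairpin TRCN0000054350 fell from 3.75%, 3.54% and 3.62% to 0.710%, 0.594% and 0.566% in culture and 1.69%, 0.934% and 0.552% in lungs. Both later arms were below day 0 and overlapped each other. The differences were -1.97 ± 0.13 (SE, log2) in culture and -1.76 ± 0.44 in lungs (adjusted p = 0.0285, limma), the latter lost when any day 0 library was left out and with the replicate block. The Dusp6 hairpin was at 0.97 ± 0.23 in culture, a call lost with plain shares, the deposited scaling, the control scaling and all 3 arms in 1 fit, and at 0.13 ± 0.39 in lungs.

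Among metabolic and transport genes, Slc4a10, a sodium and bicarbonate transporter, had hairpins that moved apart. TRCN0000079223 rose in culture by 1.55 ± 0.14 (SE, log2), a call lost with all 3 arms in 1 fit, and was lower in lungs than in culture by -1.63 ± 0.51 (adjusted p = 0.0354, limma), a call made under 8 of 19 alternatives and lost with plain shares, the deposited and the control scaling, with edgeR and without lungs C or any culture library. TRCN0000079227 went from 3.60%, 3.49% and 3.52% at day 0 to 1.53%, 1.48% and 2.05% in culture and 3.66%, 4.99% and 5.31% in lungs. It was called lower in culture (-0.50 ± 0.17), higher in lungs (0.54 ± 0.13, adjusted p = 0.0248), a gain called under 10 of 19 alternatives and 2 of 5 scalings and lost without lungs B or any day 0 library, and higher in lungs than in culture (1.12 ± 0.26, adjusted p = 0.00747). The hairpins against Cad, which starts pyrimidine synthesis, and Slc16a3, a lactate exporter, passed in no comparison. The Cad hairpin varied more in culture than any other, from 0.0339% to 0.300%.

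Hairpins of 1 gene were set side by side by their calls. The same counts were not made over the genes of all pools, so they cannot show whether agreement was lower than usual. Over all pools 28.8% of hairpins were higher and 31.9% lower in culture, and 14.7% and 19.1% in lungs against day 0. At such rates few genes can be expected to have all hairpins called in 1 direction. Of the 15 genes with at least 2 hairpins in the pool, 0 had all hairpins higher in any comparison. All hairpins were lower for Aff4, Fermt1 and Lrrtm4 in culture, where Aff4 counts through TRCN0000103588, lost with all 3 arms in 1 fit, and Lrrtm4 through TRCN0000217849, called under 7 of 19 alternatives. All were lower for 0 genes in lungs against day 0, and for Mkrn2 in lungs against culture, where TRCN0000040524 was called under 7 of 19 alternatives and TMM alone of the 5 scalings, and turned positive under the deposited and the control scaling. Hairpins were called in opposite directions for 6 genes in culture (among them Bzw2, Mkrn2, Nfkbiz, Slc4a10 and Xirp2, with Bzw2 counted through TRCN0000096855, which turned negative under 3 of 5 scalings) and for 2 genes, among them Mkrn2, in lungs against day 0. The median range between hairpins of a gene was 2.23 (log2) in culture and 1.14 in lungs against day 0.

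For 28 of the 31 genes, 59 further hairpins were measured in other pools, in other libraries and from the same fits. In lungs against day 0, 5 of them were higher and 10 lower, in culture 18 and 16, and in lungs against culture 5 and 9. Over all pools 33.8%, 60.6% and 24.9% of hairpins were called in these comparisons, so the counts do not stand above the background. With these, every gene had at least 3 hairpins, and for 1 of the 31 all hairpins were called in 1 direction in culture and for 1 in lungs against culture. Both times the gene was Msi2, which was singled out after its values were seen. In culture the 2 hairpins of pool 12, TRCN0000071974 and TRCN0000071976, rose by 0.33 and 1.16 (log2, adjusted p = 0.0232 and 0.00307, limma). In lungs against culture they were at -1.36 and -2.86 (adjusted p = 0.00378 and 0.00237), beside -1.63 for the hairpin of pool 11, whose call was lost with the control scaling. These comparisons share the culture libraries. Against day 0 the hairpins of pool 12 were lower in lungs, at -1.17 and -1.85 (adjusted p = 0.0143 and 0.0229), while the hairpin of pool 11 was higher.

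Other losses were matched in part. For Arhgef12 the hairpins of pool 12 were at -1.50 and -1.37 in lungs against day 0 (adjusted p = 0.0529 and 0.097, limma), so all 3 were below 0 and 1 passed. Arhgef12 was not alone in this. Hairpins of 7 of the 31 genes all lay on 1 side of 0 in this comparison, among them Ccdc63 and Pbrm1, also below 0. For Aff4 1 of 2 further hairpins fell in lungs, TRCN0000103586 at -2.39 (adjusted p = 0.0245), and the other was at 0.18. For Sf3b1 the hairpin of pool 12 was at 0.14. For Dach2, the gene of the largest gain, TRCN0000422179 in pool 19 fell in lungs by 2.06 (adjusted p = 0.00608), and the other 2 hairpins were at 0.72 and 0.74, not past the threshold. For Xirp2 the hairpins of pool 17 were at 0.78 and -2.85 in lungs, not past it either. Hairpins against Pcdh18 in pool 19 passed in opposite directions, at 3.20 and -1.76 (adjusted p = 0.00192 and 0.0248, limma). The Pcdh18 hairpin of pool 12 was at 0.32 and did not pass. For Dusp4, TRCN0000054348 in pool 9 rose in lungs by 1.40 (adjusted p = 0.0447), the opposite of the hairpin in pool 11. The other Dusp4 hairpins of pool 9 were at 0.81 and -0.41, not past the threshold.

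**Figure D4:**
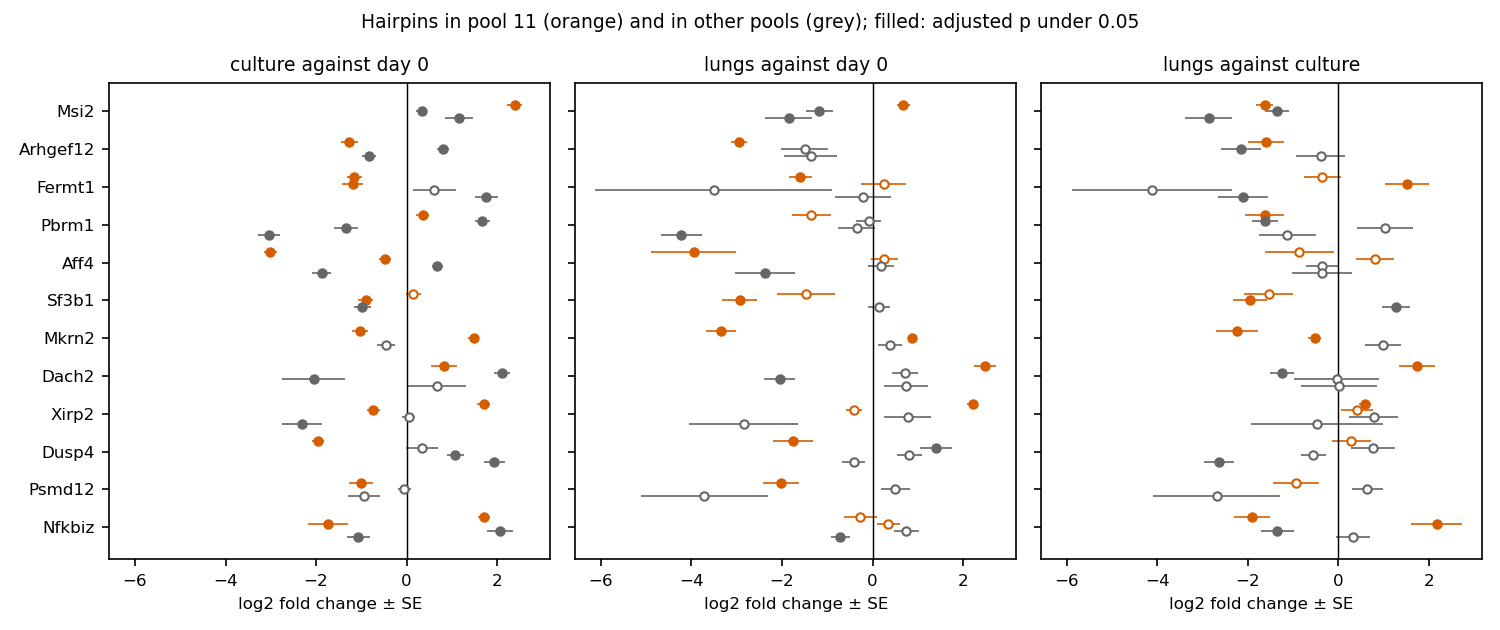
Log2 fold changes with standard errors for all hairpins against 12 genes, in pool 11 (orange) and in other pools (grey), for the 3 comparisons. Filled points passed an adjusted p of 0.05 (limma). All 3 Msi2 hairpins lie above 0 in culture and below 0 in lungs against culture, while the hairpins against Mkrn2, Dach2 and Dusp4 lie on both sides of 0 in lungs against day 0.

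The control hairpins, shared by all pools, were themselves not constant. Their summed reads over pool 11 reads, on the log2 scale, were -0.96 ± 0.03 (SD, n = 3) at day 0 and -1.41 ± 0.18 (n = 3) in lungs, with no overlap (exact permutation p = 0.1, the smallest possible). That sum includes 2 controls not reported singly here. The other 6, which follow, did not show this fall in sum, at 370, 351 and 362 per 1000 targeting reads at day 0 and 381, 384 and 314 in lungs. A non-targeting control, Non-targeting-shRNA-1, was at 155, 148 and 158 reads per 1000 targeting reads at day 0 and at 192, 165 and 178 in lungs, with 216, 221 and 202 in culture per 1000 targeting reads of pools 10 and 11. The hairpin against MUC1, a mucin gene, fell from 69.8, 71.0 and 68.2 to 10.6, 9.17 and 8.01 in lungs, and to 7.48, 6.98 and 7.01 in culture per 1000 targeting reads of pools 10 and 11. The hairpin against Cdkn1b, which encodes the cell cycle inhibitor p27, rose from 64.6, 58.4 and 60.3 to 160, 169 and 109 in lungs and was at 52.4, 53.4 and 53.3 in culture. The second non-targeting hairpin, Non-targeting-shRNA-2, fell from 31.0, 32.5 and 33.8 to 1.20, 18.8 and 2.08 in lungs and to 4.01, 4.69 and 4.75 in culture, so 2 controls without a target differed. The hairpin against PIK3CA went from 20.0 ± 2.44 (SD, n = 3) to 3.64 ± 2.79, and that against GFP from 24.1 ± 2.10 to 15.1 ± 4.15, in lungs.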

How the data were processed

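The authors deposited 1 table per library with a normalised signal per hairpin. BWA 0.5.9 is named in the submitters' processing notes, without its role. How reads were counted and normalised, and on which build, is not given in the sources used here. To recover reads, the signal of each hairpin as deposited was divided by its library's lowest value, taken as 1 read, and 27241 of 27241 values over 148 libraries were whole within 0.01 reads (100%). Reads over the pool's own 52 hairpins gave the shares.

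limma 3.58.1 (R 4.3.3) was fitted per pool on log2(CPM + 1) with only the 2 arms compared, TMM factors of edgeR 4.0.16, a variance trend and robust estimation. A pseudocount of 1 CPM understates changes of rare hairpins. Hairpins needed a mean of 10 reads, which all 52 met. Named were, in each comparison, up to 10 hairpins past the threshold with the largest change in each direction, the other hairpins of these genes and the controls, but some hairpins that this rule names, and 2 of the 8 controls, are not reported here. The steps were tested on simulated data, where calls on unchanged hairpins exceeded the intended share when hairpins were made to change. On the recovered reads edgeR called 20, 38 and 20 hairpins and DESeq2 1.42.0 called 23, 42 and 24 (lungs against day 0, culture against day 0, lungs against culture). Other alternatives were the scaling, pseudocount, filters, estimate of spread, all arms in 1 fit, a replicate block and leaving out each library. Members and gene groups were chosen with earlier results of these data known, and gene roles are textbook knowledge. Names were matched to RefSeq for 31 of 31 genes, 27 by accession. The hairpin sequences were not used here.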

Additional observations from a re-analysis of the deposited data

Results flagged for a closer look

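For TRCN0000079227 against Slc4a10, culture and lungs both differed from day 0 in opposite directions, and the difference between the arms was itself past the threshold. It was lower in culture and higher in lungs, with lungs above culture by 1.12 (log2, limma adjusted p = 0.00747), a call that held under all 19 alternatives. The gain over day 0 was called under 10 of 19 alternatives and 2 of 5 scalings, and was lost when any day 0 library was left out. The culture loss was lost with DESeq2 size factors and without day 0 B or C. The comparisons share their day 0 libraries.

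Reads of hairpins that belong to pools other than the named ones were above the highest day 0 value of 0.338% in culture A, at 0.445% of reads, and in lungs A, at 1.07%. In lungs A they came mostly from pool 7 (0.333%), pool 6 (0.314%) and pool 10 (0.253%), and in culture A mostly from pool 12 (0.252%). These reads are not in the shares, and their part in any result was not tested.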

How the results depend on the processing

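Of the 20 hairpins called in lungs against day 0, 12 were called in the same direction under every alternative run, as were 24 of 39 in culture against day 0 and 5 of 20 in lungs against culture. Leaving out 1 library at a time gave 12 to 24 calls for lungs against day 0, 35 to 41 for culture against day 0 and 14 to 24 for lungs against culture. With 1 estimate of spread over all pools, lungs against culture gave 12 calls. With all 3 arms in 1 fit the counts were 21, 26 and 24 for lungs against day 0, culture against day 0 and lungs against culture. The sources used here do not state that replicate letters pair the libraries. Deviations of same-letter libraries were correlated from -0.22 to 0.31, and those of different-letter libraries from -0.48 to 0.45. With 3 libraries per arm this cannot tell whether the letters pair them. The replicate block gave 16, 39 and 16 calls.

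In culture against day 0, 5 calls of higher hairpins turned negative under plain shares, deposited values and control totals. Only the Pbrm1 hairpin passed as lower, with deposited values and with control totals. In that order the values were -0.23, -0.30 and -0.34 for TRCN0000081820 (Pbrm1), -0.11, -0.18 and -0.22 for TRCN0000085676 (Tbx18), -0.018, -0.088 and -0.13 for TRCN0000090126 (Dctn4), -0.029, -0.099 and -0.14 for TRCN0000096855 (Bzw2), and -0.14, -0.21 and -0.25 for TRCN0000198939 (Dennd2c). In lungs against culture TRCN0000040524 (Mkrn2) turned to 0.14 with deposited values and 0.37 with control totals.

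The log2 difference in the effective number of hairpins was -0.60 for lungs against day 0 (-0.66 to -0.56 leaving out a library, -1.03 with the inverse Simpson index) and -0.57 for culture against day 0 (-0.58 to -0.55, -0.85 with inverse Simpson, -0.74 with controls). For lungs against culture it was -0.036, with -0.18 for inverse Simpson, 0.13 with controls, and -0.098 to 0.0069 leaving out a library, the highest without lungs C. Control reads over pool 11 reads differed by -0.44 for lungs against day 0 (-0.50 to -0.34), 0.11 for culture against day 0 (0.0070 to 0.22) and -0.55 for lungs against culture (-0.66 to -0.45). Divided by the reads of pools 10 and 11, the last 2 became -0.64 and 0.20, because culture libraries hold the controls of both pools. The cause of the other shifts was not tested. With 3 libraries per arm, single values cannot pass an exact test.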
